A study of Homo sapiens with 6 samples.

Results

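The genes of antigen presentation described here were taken by name from a deposited RNA-seq table of A375, an established human melanoma cell line. The rule took every row whose symbol begins with HLA-, antisense rows excepted, and added B2M, TAP1, TAP2, TAPBP, TAPBPL, ERAP1, ERAP2, NLRC5, CIITA, RFX5, RFXAP, RFXANK, CD74 and CD1D. It found 42 of the 29790 genes in the table. Cells of 3 libraries were left untreated (control) and cells of 3 libraries were exposed to 3 µM fluvastatin for 24 h. Fluvastatin is a statin, an inhibitor of the mevalonate pathway. No other genotype, agent or cell line enters the comparison, and the libraries are numbered 0, 1 and 2 in each group. The labels do not say that the libraries came from separate cultures, so the p-values speak only of how these libraries vary, and that variation may be technical. The level of a gene is its FPKM value, a fragment count scaled to transcript length and library size, so levels can be set side by side between genes.

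Class I molecules are made by nearly all nucleated cells. A heavy chain (HLA-B or HLA-C, for example) pairs with the light chain B2M and carries a peptide that the TAP transporter has brought into the endoplasmic reticulum, and CD8 T cells read the complex. Class II molecules (HLA-DR, HLA-DP and HLA-DQ, each an alpha and a beta chain) carry peptides from endosomes to CD4 T cells, with CD74, the invariant chain, guarding the groove until HLA-DM loads it. Professional antigen-presenting cells make class II constantly, and melanoma cells are known as a non-immune cell type that can express it too. Transcription of the genes runs through a shared promoter module of X and Y boxes, which RFX5, RFXAP, RFXANK, CREB and NF-Y bind, with NLRC5 as co-activator at class I genes and CIITA at class II genes.

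The fluvastatin libraries were deeper than the controls, at 1.27, 1.51 and 1.40 times control replicate 0 against 1.18 and 0.966 times for control replicates 1 and 2, so depth and treatment cannot be told apart. Of 12 melanoma markers, 10 were measured (MLANA and TYR were not listed) and 7 reached 1 FPKM in at least 3 libraries, while PMEL and S100B stayed below 1 FPKM in all 6. SOX10 was at 20.1 to 26.1 FPKM in controls and 67.1 to 75.4 FPKM after fluvastatin, and CSPG4 at 22.5 to 26.1 and 58.7 to 61.3 FPKM. NGFR was also higher, at 14.5 to 18.5 and 23.7 to 27.0 FPKM. PRAME was lower, at 42.2 to 45.7 and 23.8 to 28.5 FPKM. MCAM, TFAP2A and MITF overlapped between the groups. Of 22 leukocyte markers, 13 were measured and 8 of those stayed below 1 FPKM in every library. SPI1, the myeloid and B-cell factor, reached at most 0.111 FPKM, and CD14 at most 0.238 FPKM. The summed level of the 13 was 31.8 to 38.1 FPKM in controls and 52.3 to 55.4 FPKM after fluvastatin. Most of that sum was CD68, a lysosomal membrane glycoprotein also made outside the immune system, at 24.6 to 29.7 and 40.7 to 45.0 FPKM. LYZ (lysozyme) was at 0.506 to 1.10 and 2.11 to 2.38 FPKM, and FCER1G (an Fc receptor chain) at 0.445 to 0.513 and 0.803 to 1.14 FPKM, so these 3 markers were higher in every treated library than in any control. CD83, at 5.06 to 5.35 and 5.33 to 6.30 FPKM, and ITGAX, at 0.381 to 1.21 and 0.850 to 1.31 FPKM, overlapped between the groups. The part of these markers in the results was not tested. In bulk RNA, fewer cells of a type and less RNA per cell cannot be told apart.

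The promoter sequences of 5 picked members are shown so that matches to the Y box or X2 box cores can be compared. B2M, HLA-C and HLA-DPB1 did not pass the test, and CD74 and HLA-DRB1 were higher. HLA-DRB1 was tested only because its treated libraries were high. A contrast among these 5 is therefore not a result. The stretches of CD74 and HLA-DRB1 hold CCAAT matches and no TGACG match. The same held for the 250 bases before the start of HLA-DMA, which did not pass the test. No RefSeq promoter was matched for HLA-DRA or HLA-E, and a link between these cores and the levels was not tested. Each printed stretch is RefSeq sequence of GRCh38.p14, 5′ to 3′ on the gene's strand, from base 200 to base 41 before the annotated start. Capitals mark matches on either strand to CCAAT (Y box core, complement ATTGG) or TGACG (X2 box core, complement CGTCA). Also marked, on either strand, are 2 GAAA runs with any 2 bases between them (the core of an interferon-stimulated response element, ISRE). The distance and order of the boxes were not part of the search. In HLA-DPB1 the CGTCA match lies 193 to 189 bases before the start and the nearest ATTGG match 99 to 95. A marked TGACG is thus not shown to be an X2 box, nor is a stretch without it shown to lack one.
B2M, chr15:44711317-44711476, plus strand: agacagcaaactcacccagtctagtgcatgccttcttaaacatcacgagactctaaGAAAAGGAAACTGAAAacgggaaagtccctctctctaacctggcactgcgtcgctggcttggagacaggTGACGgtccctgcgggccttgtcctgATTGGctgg
HLA-C, chr6:31272133-31272292, minus strand: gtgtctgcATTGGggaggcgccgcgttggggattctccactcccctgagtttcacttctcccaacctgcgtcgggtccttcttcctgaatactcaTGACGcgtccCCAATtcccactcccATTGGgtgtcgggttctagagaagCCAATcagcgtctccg
CD74, chr5:150412951-150413110, minus strand: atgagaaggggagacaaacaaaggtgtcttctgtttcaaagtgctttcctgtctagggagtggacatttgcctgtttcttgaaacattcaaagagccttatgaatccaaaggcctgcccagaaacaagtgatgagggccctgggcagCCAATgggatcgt
HLA-DRB1, chr6:32589889-32590048, minus strand: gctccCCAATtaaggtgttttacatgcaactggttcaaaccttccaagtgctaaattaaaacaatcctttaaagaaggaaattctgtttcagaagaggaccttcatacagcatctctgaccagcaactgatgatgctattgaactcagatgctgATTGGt
HLA-DPB1, chr6:33075790-33075949, plus strand: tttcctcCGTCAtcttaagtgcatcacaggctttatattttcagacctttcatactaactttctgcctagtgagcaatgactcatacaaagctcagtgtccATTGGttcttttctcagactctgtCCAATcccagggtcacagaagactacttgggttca

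RefSeq promoters were matched by symbol for 28 of the 42 members, as 40 windows of the 250 bases before a start, since some genes have several starts. CCAAT or its complement lay in 21 of the 40 windows (52.5%), against 32% of all 35116 promoter windows of that length. TGACG lay in 12 of the 40 (30%, against 21.2%) and the ISRE core in 7 (17.5%, against 3.02%). Among the 13 class II chain, loading and CD74 genes with a window, 12 held a CCAAT match and 4 a TGACG match. The exception was HLA-DPA1, with no CCAAT match in either of its windows. Matches to the ISRE core were found for B2M, TAP1, TAP2, TAPBP, HLA-F, ERAP2 and RFX5, and those of B2M, TAP1 and TAPBP include overlapping copies. HLA paralogs share promoter sequence, so these counts are not independent, and a match is a run of letters, not a shown binding site.

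After fluvastatin, 3 genes of the class II side and 1 of the class I side were higher. These were CD74, HLA-DRA, HLA-DRB1 and the nonclassical class I gene HLA-E, while RFX5, a DNA-binding subunit of the X box complex, was lower. HLA-B, HLA-C, B2M and the peptide transporter did not pass the test. Of the 42 members, 24 passed the filter of at least 1 FPKM in at least 3 libraries and 18 did not. Of those 24, 4 rose at an adjusted p below 0.05 (limma on log2(FPKM + 1), Benjamini-Hochberg over all 14344 genes tested), or 16.7%, where 14.1% of all tested genes rose. The single member that fell was 4.17% of the 24, where 13.6% of all tested genes fell. HLA-DRB1, 1 of the 4, reached 1 FPKM in treated libraries only, so it had to differ once it was tested. Without it, 3 of 23 rose (13%), near the share of all genes. The median log2 difference (fluvastatin minus control) of the 24 was 0.17, and that of all tested genes was -0.01. When library depth was added to the model, 0 members rose, 0 fell and 61 of all genes passed, in place of 3971. The count of members that rose was 1 without fluvastatin replicate 0 or without fluvastatin replicate 1 and 6 without fluvastatin replicate 2. Without fluvastatin replicate 0 or 1 the 1 member left was HLA-DRB1, so CD74, HLA-DRA and HLA-E were all lost. HLA-DRB1 is also counted in the 6.

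**Figure D1:**
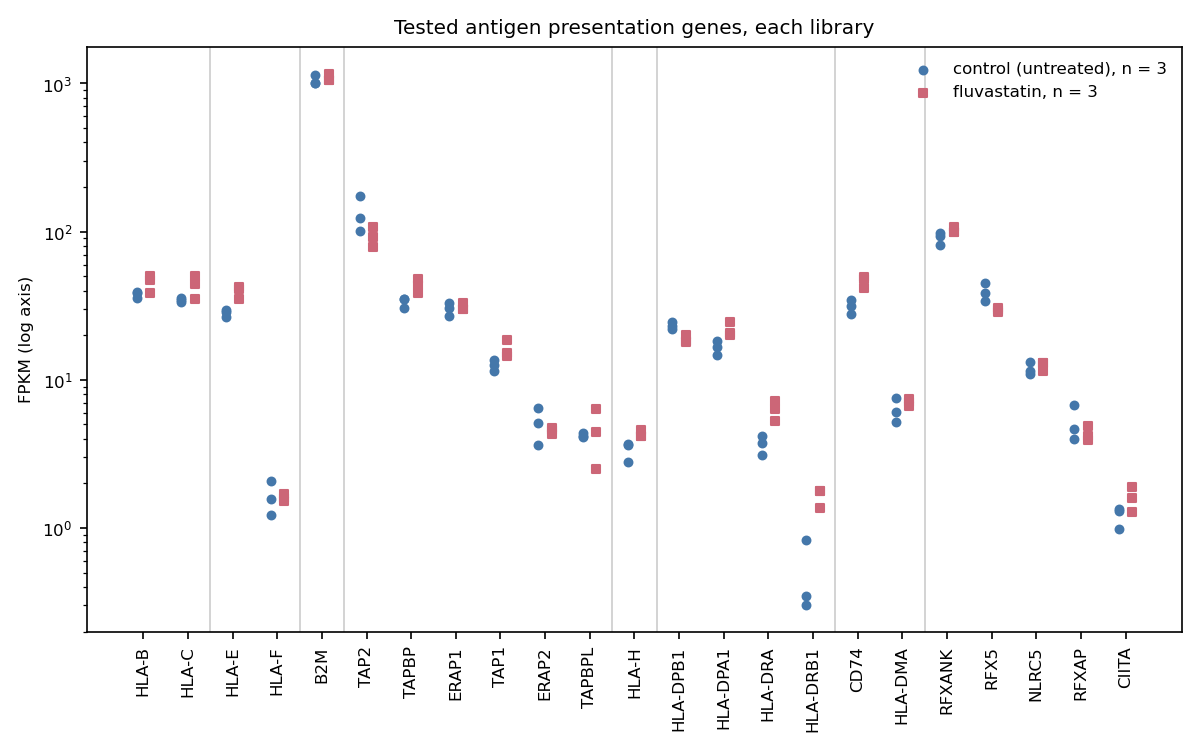
FPKM on a log axis of tested members, ordered by role and separated by grey lines, with circles for the 3 control libraries and squares for the 3 fluvastatin libraries. B2M lies highest, at 1000 FPKM and above, and the squares of CD74, HLA-DRA, HLA-DRB1 and HLA-E lie above all circles.

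B2M, the light chain that every class I molecule shares, was the most abundant member, at 1001, 1000 and 1137 FPKM in control replicates 0, 1 and 2. It was at 1051, 1166 and 1061 FPKM in fluvastatin replicates 0, 1 and 2. The groups overlapped, with a log2 difference of 0.06 ± 0.10 (SE; 95% interval -0.17 to 0.29; limma adjusted p = 0.662).

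The classical heavy chains display peptides to CD8 T cells. HLA-B was at 38.7, 39.4 and 35.7 FPKM in controls and 47.2, 50.0 and 38.4 FPKM after the drug. HLA-C, which is also a main ligand of inhibitory receptors on natural killer cells, was at 35.5, 34.6 and 33.5 FPKM and then at 44.5, 49.8 and 35.2 FPKM. In both genes fluvastatin replicate 2 was the lowest treated library and lay inside the control range, so the groups overlapped. The log2 differences were 0.24 ± 0.12 (adjusted p = 0.187) for HLA-B and 0.30 ± 0.14 (0.148) for HLA-C by limma. HLA-C passed in 1 of 15 alternatives, that without fluvastatin replicate 2 (0.0416), and its highest adjusted p was 0.748.

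HLA-E presents leader peptides of other class I chains to NKG2A on natural killer cells. It was at 28.8, 29.6 and 26.4 FPKM in controls and at 41.1, 42.5 and 34.9 FPKM after fluvastatin, with every treated library above every control. Its mean rose 1.39-fold, from 28.3 ± 1.67 to 39.5 ± 4.03 FPKM (SD, n = 3), with a log2 difference of 0.46 ± 0.11 (limma adjusted p = 0.0214). HLA-E lies on chromosome 6 at 30489467 to 30494205 of GRCh38, plus strand, and shares no exon position with another gene of the table. Leaving out control replicate 0 (0.0515) or 2 (0.0544), or fluvastatin replicate 0 (0.0738) or 1 (0.0672), ended the call. Adjusted p ranged from 0.00931 to 0.472 over the alternatives. HLA-F, a nonclassical chain, was at 1.22 to 2.06 FPKM in controls and 1.53 to 1.69 FPKM in treated libraries (adjusted p = 0.974). HLA-G, known for its expression in trophoblast, was at 0.191 to 0.406 and 0.206 to 0.395 FPKM and was not tested.

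The 7 class I pseudogenes were low. HLA-H, the one tested, was at 3.63, 2.78 and 3.68 FPKM in controls and 4.17, 4.60 and 4.20 FPKM after the drug (limma adjusted p = 0.0977). Its sequence is close to those of class I genes, and reads of such copies may be split between them. HLA-L and HLA-K were at 0.574 to 1.22 FPKM over both groups. HLA-U was above 0 in only 1 library, control replicate 1 (2.27 FPKM), and HLA-W in only 1, fluvastatin replicate 0 (0.0733 FPKM). HLA-J stayed at or below 0.201 FPKM and HLA-V at or below 0.442 FPKM.

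TAP1 and TAP2 form the transporter that moves peptides into the endoplasmic reticulum. TAP1 was at 12.6, 13.6 and 11.5 FPKM in controls and 14.5, 18.5 and 15.2 FPKM after fluvastatin, so the groups did not overlap, yet it did not pass (log2 difference 0.33 ± 0.12, limma adjusted p = 0.0832). Its partner TAP2 leaned the other way, at 173, 123 and 101 FPKM and then at 78.8, 107 and 92.0 FPKM. Control replicate 0 stood far above the others, the groups overlapped, and the log2 difference was -0.49 ± 0.21 (adjusted p = 0.134). The level of TAP2 was 13.8, 9.10 and 8.78 times that of TAP1 in controls and 5.42, 5.77 and 6.03 times in treated libraries. This ratio was looked at after the values were seen and was not tested.

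TAPBP (tapasin) bridges class I molecules to the transporter and edits their peptides. It was at 34.8, 34.9 and 30.4 FPKM in controls and 43.9, 47.7 and 38.5 FPKM after the drug, with no overlap. The log2 difference of 0.37 ± 0.11 fell just short (limma adjusted p = 0.0538) and passed in 6 of 15 alternatives, among them that without fluvastatin replicate 2 (0.0496), with values from 0.0289 to 0.708. TAPBPL, a related peptide editor that works outside the TAP complex, was at 4.11 to 4.39 FPKM in controls and spread to 4.44, 6.35 and 2.52 FPKM in treated libraries. ERAP1 and ERAP2 trim peptides in the endoplasmic reticulum. ERAP1 was at 30.1 ± 3.16 and 31.1 ± 1.46 FPKM (SD, n = 3; limma adjusted p = 0.757). It shares exon positions with CAST on the opposite strand, which stood at 127.7 to 135.9 and 192.4 to 219.4 FPKM, and the strand setting of the counting was not given in the sources used here. ERAP2 was at 3.65, 5.11 and 6.42 FPKM and then at 4.55, 4.30 and 4.71 FPKM (adjusted p = 0.678).

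**Figure D2:**
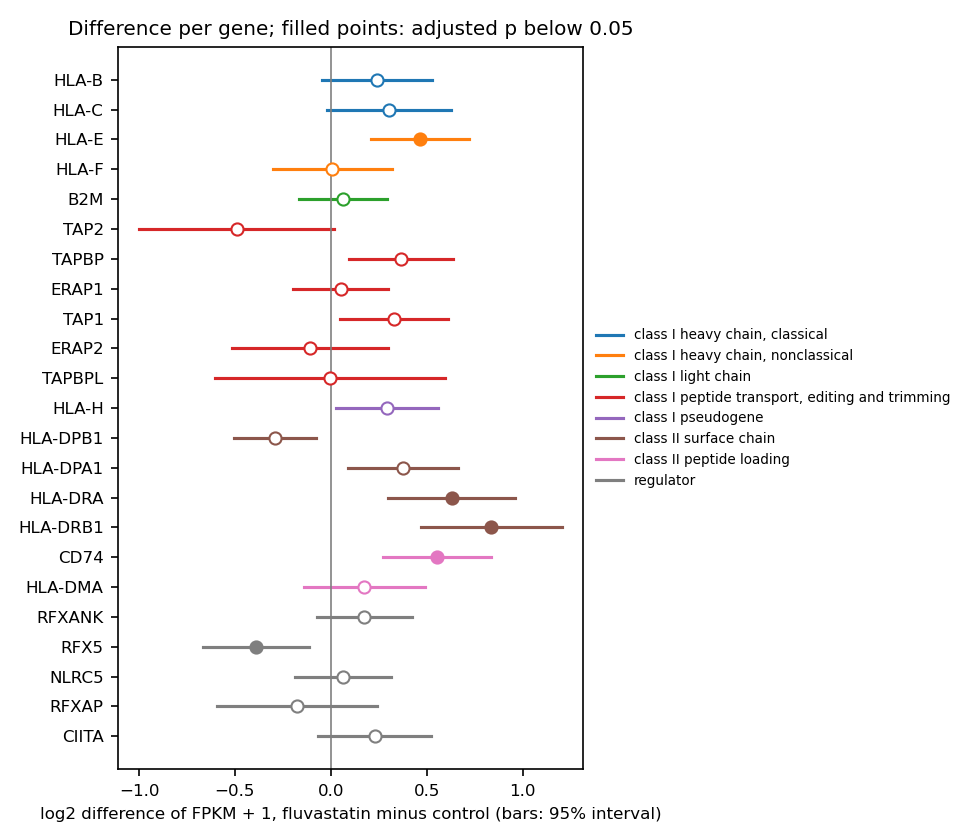
Log2 difference of FPKM + 1 (fluvastatin minus control) of tested members with 95% intervals, coloured by role, where filled points have an adjusted p below 0.05. The 4 filled points to the right are HLA-E, HLA-DRA, HLA-DRB1 and CD74, and the 1 to the left is RFX5.

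CD74 was the most abundant gene of the class II side. It was at 31.4, 34.8 and 28.0 FPKM in controls and 49.7, 48.1 and 41.7 FPKM after fluvastatin, and the lowest treated library lay above the highest control. The mean rose 1.48-fold, from 31.4 ± 3.41 to 46.5 ± 4.22 FPKM (SD, n = 3), with a log2 difference of 0.55 ± 0.12 (limma adjusted p = 0.0162). CD74 lies on chromosome 5 at 150401637 to 150412929, minus strand, away from the HLA cluster of chromosome 6, and its printed promoter holds 1 CCAAT match, 53 to 49 bases before the start. Leaving out fluvastatin replicate 0 (0.0595) or 1 (0.0538) ended the call, and adjusted p ranged from 0.00588 to 0.463.

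HLA-DRA encodes the single alpha chain of HLA-DR. It was at 3.76, 3.11 and 4.19 FPKM in controls and 6.33, 7.21 and 5.25 FPKM in treated libraries, without overlap. It rose 1.70-fold, with a log2 difference of 0.63 ± 0.14 (limma adjusted p = 0.0185). HLA-DRA lies on chromosome 6 at 32439842 to 32445046, plus strand. Leaving out control replicate 1 (0.0559), fluvastatin replicate 0 (0.0616) or fluvastatin replicate 1 (0.0555) ended the call, which held in 9 of 14 alternatives, with values from 0.0131 to 0.224.

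HLA-DRB1, the main beta chain of HLA-DR, was at 0.346, 0.831 and 0.301 FPKM in controls and 1.78, 1.78 and 1.37 FPKM after the drug. All 3 treated libraries lay above all controls, and control replicate 1 was the highest control. The mean was 3.33-fold higher (5.07-fold when control replicate 1 is left out), and the log2 difference was 0.84 ± 0.15. Only the treated libraries reached 1 FPKM, so the gene was tested because it was high there, and its limma adjusted p (0.0103) is given as a description and supports nothing. Its levels are also low. An approximate conversion with the longest annotated transcript put them near 6, 17 and 5 fragments in controls and 40, 48 and 34 fragments after fluvastatin. With depth as a covariate the adjusted p was 0.467.

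The 2 other DR beta rows, HLA-DRB5 and the pseudogene HLA-DRB6, had values of the same order and did not reach the filter. HLA-DRB5 was at 0.222, 0.241 and 0.521 FPKM in controls and 0.793, 0.720 and 0.933 FPKM in treated libraries. HLA-DRB6 was at 0.321, 0.144 and 0.117 FPKM and then at 0.395, 0.909 and 0.355 FPKM. In each row the treated libraries lay above the controls, without a test. The 3 beta rows are near-identical copies of one another between which reads may be split, so they are not separate observations. The 4 DR rows summed to 4.65, 4.33 and 5.13 FPKM in controls and 9.30, 10.6 and 7.90 FPKM after fluvastatin, 1.97-fold higher in the mean. This sum includes HLA-DRB1, was not planned and was not tested.

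**Figure D3:**
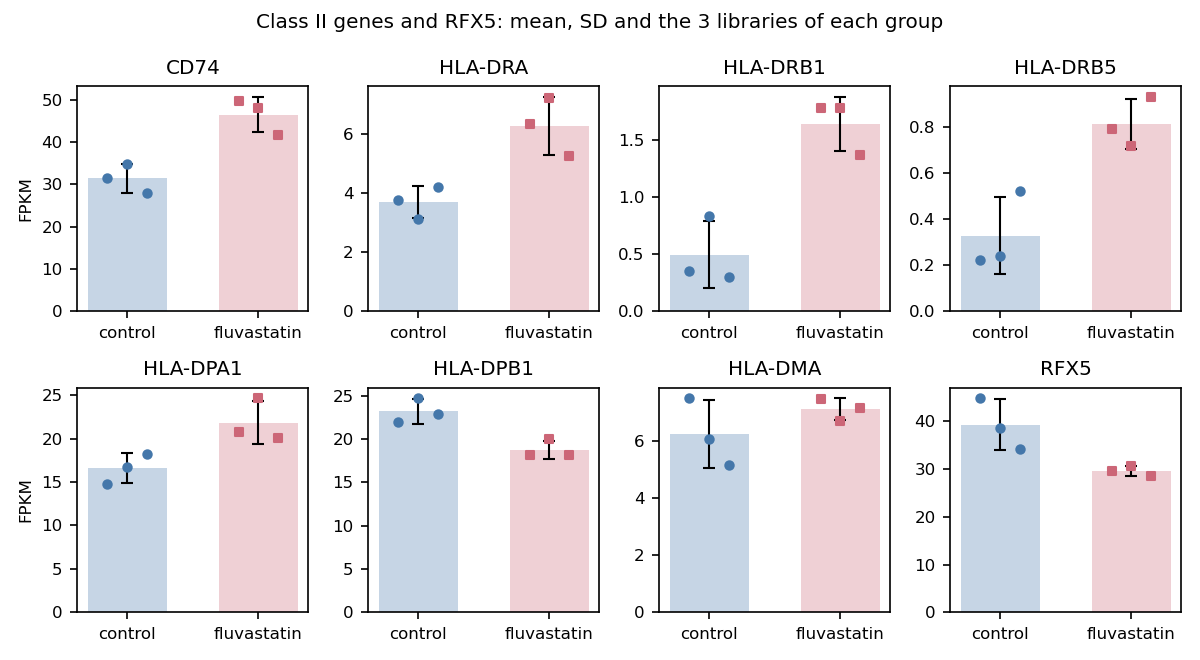
FPKM of 8 members on linear axes from 0, with bars for group means, error bars for SD (n = 3) and points for the libraries. CD74, HLA-DRA, HLA-DRB1, HLA-DRB5 and HLA-DPA1 have every treated point above every control point, HLA-DPB1 and RFX5 the reverse, and HLA-DMA overlaps.

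HLA-DP was the most abundant class II surface molecule by its RNA, and its chains leaned in opposite directions. The alpha chain gene HLA-DPA1 was at 14.8, 16.7 and 18.3 FPKM in controls and 20.7, 24.6 and 20.1 FPKM after fluvastatin. The beta chain gene HLA-DPB1 was at 21.9, 24.7 and 22.9 FPKM and then at 18.1, 20.0 and 18.2 FPKM. Neither pair of groups overlapped. Neither gene passed by limma, with log2 differences of 0.38 ± 0.12 (adjusted p = 0.0596) for HLA-DPA1 and -0.29 ± 0.09 (0.0542) for HLA-DPB1. HLA-DPA1 passed in 2 of 15 alternatives (range 0.0400 to 0.646) and HLA-DPB1 in 3 of 15 (range 0.0352 to 0.231), none of which left out a library. The level of HLA-DPB1 was 1.48, 1.48 and 1.26 times that of HLA-DPA1 in controls and 0.874, 0.810 and 0.904 times in treated libraries, a ratio looked at after the values were seen and not tested. The genes lie head to head on chromosome 6, HLA-DPA1 at 33064569 to 33080775 (minus strand) and HLA-DPB1 at 33075926 to 33087201 (plus strand), and share exon positions. Without a stated strand setting their reads cannot be told apart where they overlap. The RefSeq start of HLA-DPB1 lies 2341 bases from one HLA-DPA1 start and 4758 bases from the other.

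HLA-DQ was barely present. HLA-DQB1 reached at most 0.699 FPKM and HLA-DQA1 at most 0.169 FPKM, and each was listed at 0 in at least 1 control. HLA-DQA2 stayed at or below 0.102 FPKM, and HLA-DQB2 and the pseudogene HLA-DPB2 were each above 0 in 1 treated library only. The 11 surface chain rows summed to 41.6, 45.9 and 47.1 FPKM in controls and 48.6, 55.9 and 46.7 FPKM after fluvastatin, so the groups overlapped. Without HLA-DPA1 and HLA-DPB1, the most abundant of these rows, the sums were 4.91, 4.43 and 5.93 FPKM and 9.77, 11.3 and 8.46 FPKM. That split was not planned and was not tested. What it leaves is mostly the DR rows already given, HLA-DRB1 with its selected pattern among them.

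HLA-DMA and HLA-DMB form the editor that exchanges the CD74 fragment for antigenic peptide. HLA-DMA was at 7.49, 6.06 and 5.16 FPKM in controls and 7.47, 6.70 and 7.14 FPKM in treated libraries (log2 difference 0.17 ± 0.13, limma adjusted p = 0.372). HLA-DMA shares exon positions with BRD2 on the opposite strand, which stood at 120.4 to 132.4 FPKM over all libraries. HLA-DMB was lower, at 0.594, 0.121 and 0.282 FPKM and then at 0.707, 0.613 and 0.617 FPKM, and was not tested. HLA-DOA and HLA-DOB, which inhibit HLA-DM and are typical of B cells, reached at most 0.0254 and 0.266 FPKM. CD1D, which shows lipids to natural killer T cells, was at 0.0279 to 0.0671 FPKM in controls and 0.0218 to 0.0257 FPKM after the drug. Multiplied by relative depth, control replicate 2 was at 0.0648 and the other 5 libraries at 0.0317 to 0.0331, the values of about 2 fragments and 1 fragment. Scaled for depth, the treated values lay beside those of control replicates 0 and 1.

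The regulators of the module showed 1 change among 5. RFX5 was at 44.8, 38.6 and 34.2 FPKM in controls and 29.5, 30.6 and 28.5 FPKM after fluvastatin, below every control. Its mean fell 1.33-fold, from 39.2 ± 5.33 to 29.5 ± 1.03 FPKM (SD, n = 3), with a log2 difference of -0.39 ± 0.12 (limma adjusted p = 0.0480). RFX5 lies on chromosome 1 at 151340640 to 151347357, minus strand, and shares exon positions with a gene on the opposite strand. The call was at the edge of the threshold and held in 4 of 15 alternatives, with values from 0.0258 to 0.396. It ended when control replicate 0 (0.110) or 1 (0.109) was left out, and when fluvastatin replicate 0 (0.121), 1 (0.0931) or 2 (0.128) was. The other 2 subunits of the X box complex did not pass. RFXANK was at 92.8, 80.7 and 98.3 FPKM and then at 99.1, 99.9 and 107 FPKM (adjusted p = 0.254), and RFXAP was at 3.97, 4.64 and 6.73 FPKM and then at 4.21, 4.86 and 3.94 FPKM (0.499). RFXANK shares exon positions with BORCS8 and NR2C2AP on the opposite strand. BORCS8 stood at 25.2 to 34.6 FPKM over all libraries. NR2C2AP was at 24.4 to 27.8 FPKM in controls and 14.5 to 15.9 FPKM after fluvastatin.

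CIITA, the class II co-activator, was low and leaned upward, at 0.983, 1.34 and 1.30 FPKM in controls and 1.89, 1.27 and 1.61 FPKM after fluvastatin. The groups overlapped, and the log2 difference of 0.23 ± 0.12 did not pass (95% interval -0.07 to 0.52; limma adjusted p = 0.218). CIITA shares exon positions with DEXI on the opposite strand, which stood at 9.57 to 13.4 FPKM over all libraries. Without a stated strand setting, reads of DEXI may be counted in the low CIITA values. NLRC5, the class I co-activator, was at 11.4, 13.3 and 11.0 FPKM and then at 12.9, 11.4 and 12.9 FPKM (log2 difference 0.06 ± 0.10, adjusted p = 0.705). The lowest NLRC5 value lay above the highest CIITA value in each group.

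In 9 of the 24 tested members, HLA-DRB1 with its selected pattern among them, every treated library lay above every control, where this held for 21.9% of all tested genes, and in 2 the reverse held, against 22.9% of all tested genes. The 9 were HLA-E, TAP1, TAPBP, HLA-H, HLA-DPA1, HLA-DRA, HLA-DRB1, CD74 and RFXANK, and the 2 were HLA-DPB1 and RFX5. Exon positions are shared with another gene of the table for 21 of the 42 members, HLA-B with HLA-C among them.

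**Figure D4:**
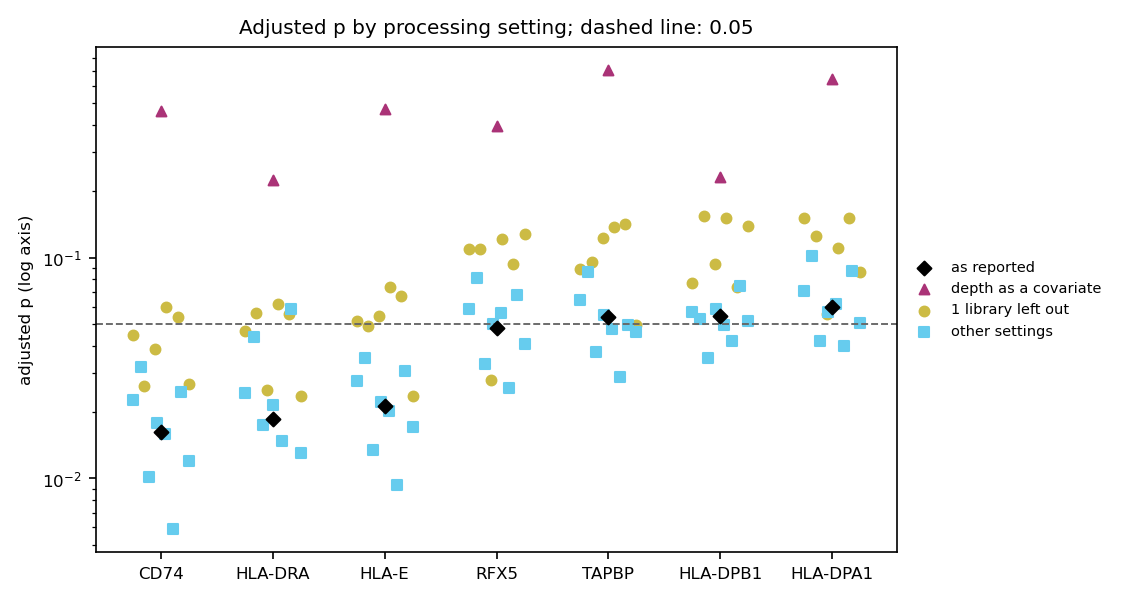
Adjusted p on a log axis of 4 called members and the 3 nearest the threshold, with diamonds for the reported fit, circles for fits without 1 library, squares for other settings and triangles for depth as a covariate. All triangles lie above the dashed line at 0.05, and each gene has at least 1 circle above it.

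The wider pathway was read from 49 further genes in 9 groups, a list chosen with earlier results of these data known. A share of this list or its groups above that of all genes is therefore a description and supports nothing. Of the 44 measured, 42 were tested, and 10 rose (23.8%, against 14.1% of all tested genes), 6 fell (14.3%, against 13.6%) and 26 did not pass by limma. Without SOCS1, which reached 1 FPKM in treated libraries only, 9 of 41 rose (22%). The median log2 difference of the 42 was 0.01. Genes of class II processing in endosomes and lysosomes rose in 4 of 7 cases and fell in 0, beside 14.1% and 13.6% of all tested genes, the 4 being the cathepsins CTSB, CTSD and CTSL and the protease SPPL2A. CTSB, a cathepsin protease, was at 117, 124 and 124 FPKM in controls and 180, 194 and 188 FPKM after the drug (1.55-fold, adjusted p = 0.00320). SPPL2A, which clears the last membrane stub of CD74, rose 1.36-fold (adjusted p = 0.0180), a call that ended on leaving out control replicate 1 (0.0611) or fluvastatin replicate 1 (0.0593) or 2 (0.0581), with values from 0.00587 to 0.407. The CTSD call (adjusted p = 0.0326) held in 8 of 15 alternatives and ended on leaving out control replicate 1 or 2 or any fluvastatin library (0.0605 to 0.0959). That of CTSL (0.0216) held in 10 of 15 and ended on leaving out control replicate 1 or 2 or fluvastatin replicate 1 (0.0553 to 0.0678). CTSS, the cathepsin that cuts CD74 in professional cells, was at 2.68 ± 1.17 and 2.93 ± 0.807 FPKM (SD, n = 3; limma adjusted p = 0.757). In LGMN, also of this group, every treated library lay below every control, yet it did not pass (limma adjusted p = 0.0828). It was at 10.6, 12.6 and 8.71 FPKM in controls and 6.05, 7.94 and 8.36 FPKM after the drug. IFI30 was at 13.5 ± 1.55 and 13.4 ± 2.38 FPKM (SD, n = 3; limma adjusted p = 0.937).

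Of 5 genes of the immunoproteasome and its activator, 1 fell and 0 rose, a share near the 13.6% of all tested genes that fell. In 3 of the 5 every treated library lay below every control, and in 0 the reverse held, against 22.9% and 21.9% of all tested genes. PSMB8, a catalytic subunit encoded beside TAP1, was at 50.5, 54.8 and 48.2 FPKM in controls and 34.9, 42.2 and 36.6 FPKM after fluvastatin, without overlap. It fell by 0.43 on the log2 scale (limma adjusted p = 0.0275), with values from 0.0118 to 0.135 over the alternatives. Leaving out control replicate 0 (0.0648) or 1 (0.0859), or fluvastatin replicate 0 (0.0905) or 2 (0.0838), ended that call. BLMH, a cytosolic peptidase, fell by 0.79 on the log2 scale (adjusted p = 0.0118, range 0.00347 to 0.0849). Of the 5 peptidases 1 rose (NPEPPS) and 2 fell (BLMH and THOP1). The NPEPPS call (0.0224) held in 9 of 15 alternatives and ended on leaving out control or fluvastatin replicate 0 or 1 (0.0537 to 0.0780). That of THOP1 (0.0446) held in 7 of 15 and ended on leaving out any library but control replicate 2 (0.0597 to 0.127). None of the 4 folding factors of class I passed, with CALR at 502.3 ± 48.0 and 505.5 ± 16.9 FPKM (SD, n = 3; limma adjusted p = 0.937).

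The interferon gamma axis, the main inducer of both pathways, had 3 of 8 members that rose (SOCS1, the kinase JAK2 and the receptor chain IFNGR1), or 2 of 7 without SOCS1, beside 14.1% of all tested genes. In the same axis 1 of 8 fell, beside 13.6% of all tested genes. The JAK2 call (limma adjusted p = 0.0492) held in 5 of 15 alternatives and ended on leaving out any library but control replicate 0 (0.0728 to 0.137). That of IFNGR1 (0.0451) held in 6 of 15 and ended on leaving out any library but control replicate 2 (0.0829 to 0.129). SOCS1, a feedback inhibitor of JAK kinases, was at 0.231, 0.560 and 0.0765 FPKM in controls and 1.60, 1.51 and 1.17 FPKM after the drug. Like HLA-DRB1, it was tested because its treated libraries were high, so its p-value is not given. IRF1, an interferon-induced transcription factor, was at 10.1 ± 1.56 and 13.3 ± 1.47 FPKM (SD, n = 3; adjusted p = 0.0893).

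In each of the remaining groups at most 1 gene rose and at most 1 fell. RNF145, an endoplasmic reticulum ubiquitin ligase, rose from 62.1 ± 1.93 to 112.9 ± 2.43 FPKM (SD, n = 3; limma adjusted p = 0.00107, range 9.33e-05 to 0.105), 1 of 3 ubiquitin ligases tested. EZH2, a histone methyltransferase, fell by 0.40 on the log2 scale (adjusted p = 0.0259). The EZH2 call ended when control replicate 1 (0.0631) or 2 (0.0517), or fluvastatin replicate 0 (0.0852), 1 (0.0648) or 2 (0.0671), was left out, with values from 0.0148 to 0.423. All 3 subunits of the Y box factor NF-Y had lower means after fluvastatin and none passed, with NFYA at 18.8 ± 0.642 and 16.1 ± 0.614 FPKM (SD, n = 3; limma adjusted p = 0.0978). Among class I-like molecules, 1 of 3 tested rose (MR1, which presents vitamin metabolites to MAIT cells) and 1 fell (HFE, a regulator of iron uptake). The MR1 call (limma adjusted p = 0.0366) held in 4 of 14 alternatives and ended on leaving out any 1 of the 6 libraries (0.0572 to 0.0970). That of HFE (0.0305) held in 8 of 15 and ended on leaving out any library but fluvastatin replicate 2 (0.0678 at the lowest).

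**Figure D5:**
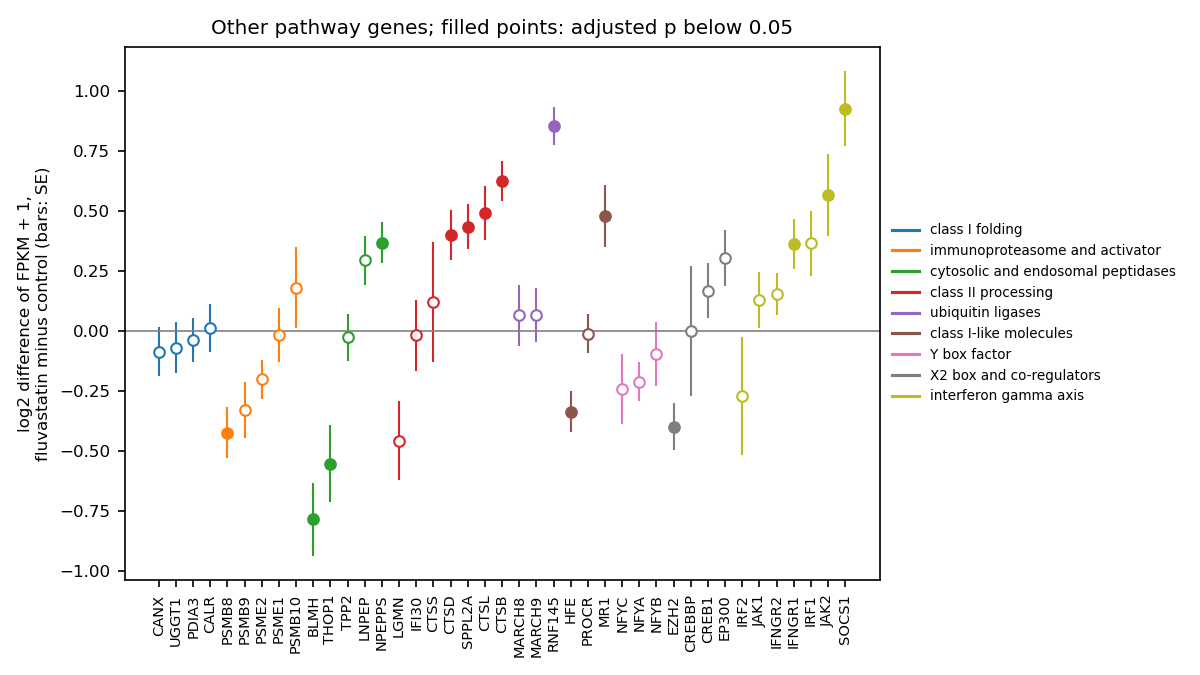
Log2 difference of FPKM + 1 (fluvastatin minus control) with SE of tested pathway genes outside the rule, grouped by colour, where filled points have an adjusted p below 0.05. The class II processing group has 4 filled points above 0, and the immunoproteasome group has 1 filled point, PSMB8, below 0.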

How the data were processed

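Total RNA of the 6 libraries was sequenced, and the authors deposited 1 table with a value per gene and library. Per the submitters' processing notes they used STAR, Cufflinks, Cuffdiff and hg38. The header names no unit, and the deposited values were taken as FPKM, since those tools give FPKM and the values are not whole. Their versions, gene annotation, strand setting and any rescaling are not given in the sources used here.

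Genes that reached 1 FPKM in 3 or more of the 6 libraries were tested with limma 3.58.1 in R 4.3.3 on log2(FPKM + 1), two-sided, threshold 0.05. Means and folds are in FPKM, and log2 differences are on the log2(FPKM + 1) scale, which understates changes of low genes. The fit was tested on simulated data. Depth was estimated from the commonest ratio between libraries of values of genes listed at 0 in some library, and only approximate fragment numbers follow from it. Coordinates are from GENCODE 29 (GRCh38), which matched all 42 members. Members may be named, except where a gene is not reported here, and of the other pathway genes those with the smallest adjusted p, up to 4 each way, plus group examples chosen after their values were seen. The members and lists were chosen with earlier results of these data known. Alternatives were another pseudocount (0.1), a filter on the mean (5 FPKM) or none, 2 scalings, another variance model, the replicate block, depth as a covariate, no genes under 300 nt, and each library left out.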

Additional observations from a re-analysis of the deposited data

How the results depend on the processing

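Over 15 alternatives, the reported member results kept direction and side of the threshold in 289 cases, were weaker in 25, stronger in 12 and reversed in 11. The 289 include genes that were not called and stayed so, while all 25 weaker cases were calls that were lost. Calls held in 12 of 15 alternatives for CD74, 10 of 15 for HLA-E, 9 of 14 for HLA-DRA and 4 of 15 for RFX5. That of HLA-DRB1 held in 13 of 14 and is a description only. All genes passing numbered 61 with depth as a covariate and 2340 to 3416 with 1 library left out, against 3971. Members that rose numbered 0 with depth as a covariate and 1 to 6 with 1 library left out, against 4. HLA-DRB1, tested because its treated libraries were high, counts in the 4 and in every fit with 1 library left out. It was the only 1 without fluvastatin replicate 0 or 1. Members that fell numbered 0 with a pseudocount of 0.1, no filter, trimmed mean of M-values scaling, the replicate block or depth as a covariate, 2 at a mean of at least 5 FPKM or with trend and robust on, and 0 to 1 with 1 library left out, against 1. With depth as a covariate the log2 differences of ERAP1 (-0.19), TAP1 (-0.034) and NLRC5 (-0.051) turned negative, as did that of HLA-F with quantile normalization (-0.034). With 1 library left out the log2 difference changed sign within the range -0.028 to 0.12 for ERAP1, -0.29 to 0.050 for ERAP2, -0.31 to 0.0072 for RFXAP, -0.26 to 0.28 for TAPBPL and -0.11 to 0.13 for HLA-F. The causes were not tested, and none of these was called. With the replicate block 3154 genes passed, HLA-DRA (adjusted p = 0.0586), RFX5 (0.0677), and SPPL2A (0.0544) were lost and TAPBP passed (0.0494). Same-numbered libraries correlated at -0.0015, 0.085 and 0.084 in their deviations from group means, so the numbers were not taken as pairs, and not every library correlated best with its own number. Genes under 1 FPKM rest on few fragments.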
